A study of Arabidopsis thaliana with 9 samples.

Results

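Transcript levels of dark-grown Arabidopsis thaliana seedlings that overexpress AtGATA2 (the line AtGATA2ox) were set against those of wild type (Col). The members were all arrays titled AtGATA2ox and all arrays titled Col, 3 each, which is 6 of the 9 arrays of the series. Every probe set was used except the 64 array controls, 22746 in all, as log2(intensity + 1). Both groups share the Columbia-0 background, were kept in darkness for 108 h on solid medium with 1% sucrose, and were frozen in the dark as whole seedlings. The other 3 arrays hold bri1-116 in the same background, which lacks a working BRI1, the receptor kinase for brassinosteroids, and whose homozygous seedlings were picked singly from a segregating population after freezing. AtGATA2ox is a transgenic line, and the promoter that drives the transgene, the number of independent lines and the seedlings pooled per array are not stated in the labels. AtGATA2 (AT2G45050) and BRI1 are named on no probe set, so the transgene and the mutated gene could not serve as a check of the labels.

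GATA factors are zinc finger proteins that bind short DNA motifs holding the letters GATA. A seedling in the dark lengthens its hypocotyl, keeps its cotyledons closed and holds its plastids as etioplasts, a programme that brassinosteroids and gibberellins promote. Light ends it, slows hypocotyl growth and turns on the genes of the photosynthetic apparatus. AtGATA2 is known as a positive regulator of the light programme whose own transcription is repressed by brassinosteroid signalling.

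The 3 AtGATA2ox arrays correlated with each other at 0.891 to 0.897 (Pearson r across probe sets), the 3 Col arrays at 0.935 to 0.941, and arrays of different groups at 0.848 to 0.867. No label gives a culture or a hybridisation date, so the p-values reflect no more than the spread among these arrays, which may be technical. The AtGATA2ox arrays came in a separate run of records, and hybridisation run and genotype cannot be told apart. The intensity of the 3' actin control over that of the 5' control, a ratio that is higher for shorter RNA or cDNA, was 33.1 ± 10.6 in AtGATA2ox and 11.8 ± 3.4 in Col (SD, n = 3 each), with no overlap. The GAPDH ratio was 2.45 ± 0.773 in AtGATA2ox and 1.69 ± 0.145 in Col, and the ubiquitin ratio was 3.0 ± 0.732 in AtGATA2ox and 2.27 ± 0.081 in Col. The part of RNA quality in the differences below was not tested. The brightest Bacillus control, which has no target in plants, read up to 84.1 on the AtGATA2ox arrays and up to 63.9 on the Col arrays, so intensities in that range may be background and their fold changes are not exact. This limit applies to every gene below, also where it is not repeated.

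In limma's test AtGATA2ox had 2211 probe sets (9.72%) above Col and 4275 (18.8%) below it at a Benjamini-Hochberg adjusted p under 0.05, and the median log2 fold change was -0.17. The platform annotation ties 13513 probe sets (59.4%) to 1 gene. Among the 13355 loci so named, taken by their brightest probe set, 8.61% were called higher and 16.5% lower, with a median of -0.13. These shares are the background for every list below, while among the 1535 loci with a symbol, from which the lists come, they were 11.5% and 22.1%. A list share above 8.61% or 16.5% but not above 11.5% or 22.1% is near the background. The 3 AtGATA2ox arrays and the 3 Col arrays did not overlap for 38.2% of the named loci, called or not. Lists hold only loci whose symbol or synonym places them there, so none is a whole family.

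The balance of rises and falls depended on how the arrays were scaled. The deposited intensities have the same trimmed mean on each array, while the median was 110.7 ± 10.7 in AtGATA2ox and 140 ± 6.6 in Col, and the hybridisation controls, RNAs added in known amounts, averaged 11.16 ± 0.226 in AtGATA2ox and 10.11 ± 0.0896 in Col on the log2 scale. Relative to the deposited scale, quantile normalisation moved the median fold change by 0.18, centring each array on its median by 0.34, and scaling to the 18 hybridisation control probe sets by -1.05. The counts higher and lower were 2685 and 2998 with quantile normalisation, 3465 and 2501 after median centring, and 421 and 12046 after scaling to the hybridisation controls. Rises thus made up 34.1% of the calls as deposited and between 3.38% and 58.1% otherwise. Called in the same direction under all 4 scalings were 421 probe sets that were higher and 2403 that were lower. By locus these were 1.65% (higher) and 9.14% (lower) of the named loci. That scaling lowers every fold change by the same amount, so it removes small rises and adds to falls by construction, and a kept fall beside an unkept rise shows no difference between them. A call described as kept below is one of these. A rise smaller than 1.05 on the log2 scale turned into a fall under scaling to the hybridisation controls, whatever its p-value.

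**Figure D1:**
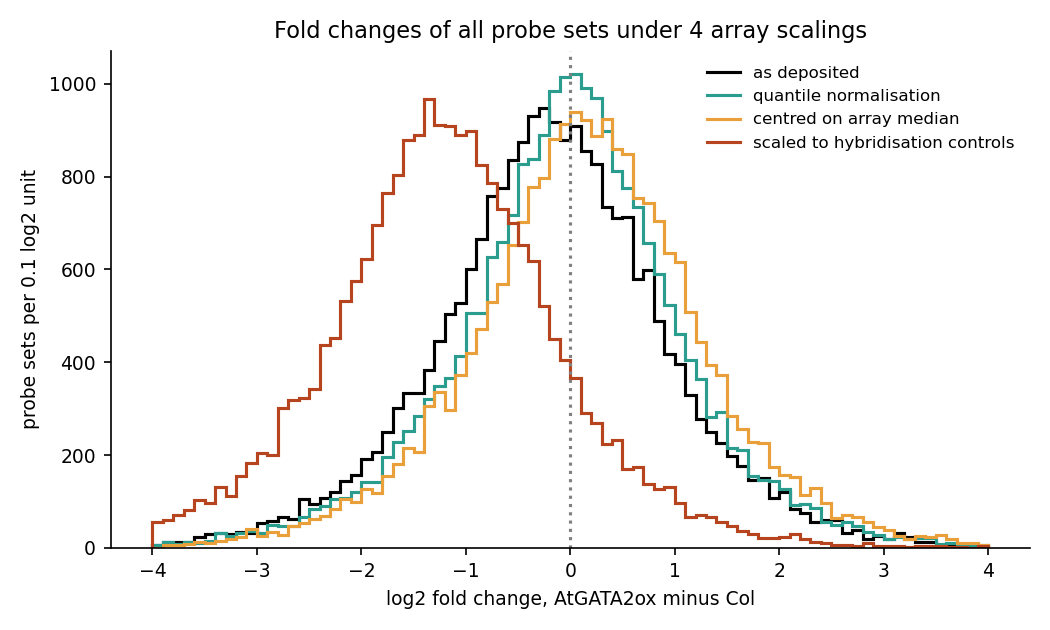
Number of probe sets (vertical axis) in each 0.1 step of log2 fold change, AtGATA2ox minus Col (horizontal axis, drawn from -4 to 4), under the 4 scalings. The 3 curves that do not use the hybridisation controls peak near 0, and the curve scaled to the hybridisation controls lies about 1 unit lower.

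Genes of the photosynthetic apparatus were mostly higher in AtGATA2ox. Of 10 measured members of the photosystems and their antennae, 7 rose, 1 fell and 2 were not called, against the background of 8.61% and 16.5%, with a median log2 fold change of 1.33 (0.28 under scaling to the hybridisation controls). Of these, 4 rises and the fall were kept under all 4 scalings, and the falls were 2 without AtGATA2ox replicate 2. PSBY, a small photosystem II subunit, read 10160.8, 8326.5 and 9703.5 in AtGATA2ox against 2075.2, 1394.1 and 1811.5 in Col, so the groups lay far apart (log2 fold change 2.43 ± 0.17, adjusted p = 5.3e-07). PSAE-1, a stromal-side subunit of photosystem I, read 12794.8, 11568.7 and 9839 in AtGATA2ox against 2727.5, 2345.2 and 1991.4 in Col, a 4.85-fold difference (log2 fold change 2.28 ± 0.17, adjusted p = 8.3e-07). PSAN, a lumenal subunit of photosystem I, and LHCB4.1, a minor antenna protein of photosystem II, rose 3.94-fold and 3.63-fold. The member that fell was another gene of the same antenna type, LHCB4.3, at 235.7, 190.3 and 268.4 in AtGATA2ox against 462.4, 582.6 and 396.5 in Col (log2 fold change -1.05 ± 0.21, adjusted p = 0.0019).

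Other nuclear genes of the plastid moved in both directions. Of 29 thylakoid assembly and electron flow genes 7 rose and 8 fell, of which 2 rises and 1 fall were kept. The 8 falls were 4 without AtGATA2ox replicate 3 or Col replicate 1, and 5 without Col replicate 2 or 3. CaS, a thylakoid calcium-sensing protein, was at 1108 ± 226 in AtGATA2ox and 247 ± 71.7 in Col (log2 fold change 2.18 ± 0.22, adjusted p = 1.2e-05), and AT1G52220, listed as CURT1C, which bends thylakoid membranes, rose 3.59-fold, both kept. Its relative AT4G01150 (CURT1A) rose by 1.39 ± 0.15 on the log2 scale and lost its call under scaling to the hybridisation controls (0.34). In chlorophyll and heme synthesis 5 of 14 genes rose and 2 fell, and no rise was kept. The falls were 1 without AtGATA2ox replicate 3 or Col replicate 1, 2 or 3. HEMB1, which makes porphobilinogen, rose to 4471.5, 4290.9 and 3933.8 in AtGATA2ox against 1965.6, 1573 and 1626.4 in Col (log2 fold change 1.30 ± 0.15, adjusted p = 2.3e-05, 0.25 under scaling to the hybridisation controls). CHLM, the magnesium protoporphyrin methyltransferase, and HEME1, a uroporphyrinogen decarboxylase, rose by 0.93 ± 0.17 and 0.97 ± 0.21, values that turned to -0.11 and -0.08 under that scaling. HEMA2, a glutamyl-tRNA reductase of the first step, fell by 0.86 (adjusted p = 0.043), a call lost under quantile normalisation and median centring (-0.46 and -0.52) and without any one of AtGATA2ox replicates 1 and 3 or the Col replicates, with adjusted p up to 0.222 without Col replicate 2.

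Carbon fixation and starch genes were called in both directions. Of 14 genes of the Calvin cycle, starch and photorespiration, 3 rose (21.4%) and 2 fell (14.3%), against the background of 8.61% and 16.5%. The 3 rises were 1 without Col replicate 2. PRK, the phosphoribulokinase of the Calvin cycle, was at 1240.3, 1065.3 and 899.1 in AtGATA2ox against 2050.1, 1744.9 and 2226.9 in Col (log2 fold change -0.91 ± 0.22, adjusted p = 0.0059), a fall not called after median centring (-0.58). DPE1, a plastid enzyme of starch breakdown, fell 4.27-fold (log2 fold change -2.10 ± 0.34, adjusted p = 0.00046, kept). QQS, a gene known only from Arabidopsis that affects starch content, rose 5.5-fold (log2 fold change 2.46 ± 0.44, adjusted p = 0.00092, kept).

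Of 69 plastid-encoded genes 12 rose, 5 fell and 52 were not called, with 2 falls and no rise kept. The 12 rises were 6 without Col replicate 1 or 2. The falls were 2 or 3 without any other single array than AtGATA2ox replicate 2, and 13 without that array. The photosystem II genes psbB, psbZ and psbT rose by 1.43 ± 0.14, 1.53 ± 0.19 and 1.23 ± 0.18, and none of the 3 was called under scaling to the hybridisation controls (0.38, 0.48 and 0.18). psaA, a core protein of photosystem I, read 304.6, 1187.3 and 177.4 in AtGATA2ox against 1671.8, 1304.3 and 2303.3 in Col, so AtGATA2ox replicate 2 lay close to the Col arrays and the other two far below (log2 fold change -2.09 ± 0.54, adjusted p = 0.011). ndhA, of the plastid NADH dehydrogenase-like complex, showed the same pattern at 617.4, 1947.3 and 240.9 in AtGATA2ox against 2761.2, 2303.5 and 3382 in Col (log2 fold change -2.07 ± 0.54, adjusted p = 0.011). Without AtGATA2ox replicate 3 the difference was -1.51 for psaA (adjusted p = 0.051) and -1.34 for ndhA (adjusted p = 0.038).

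**Figure D2:**
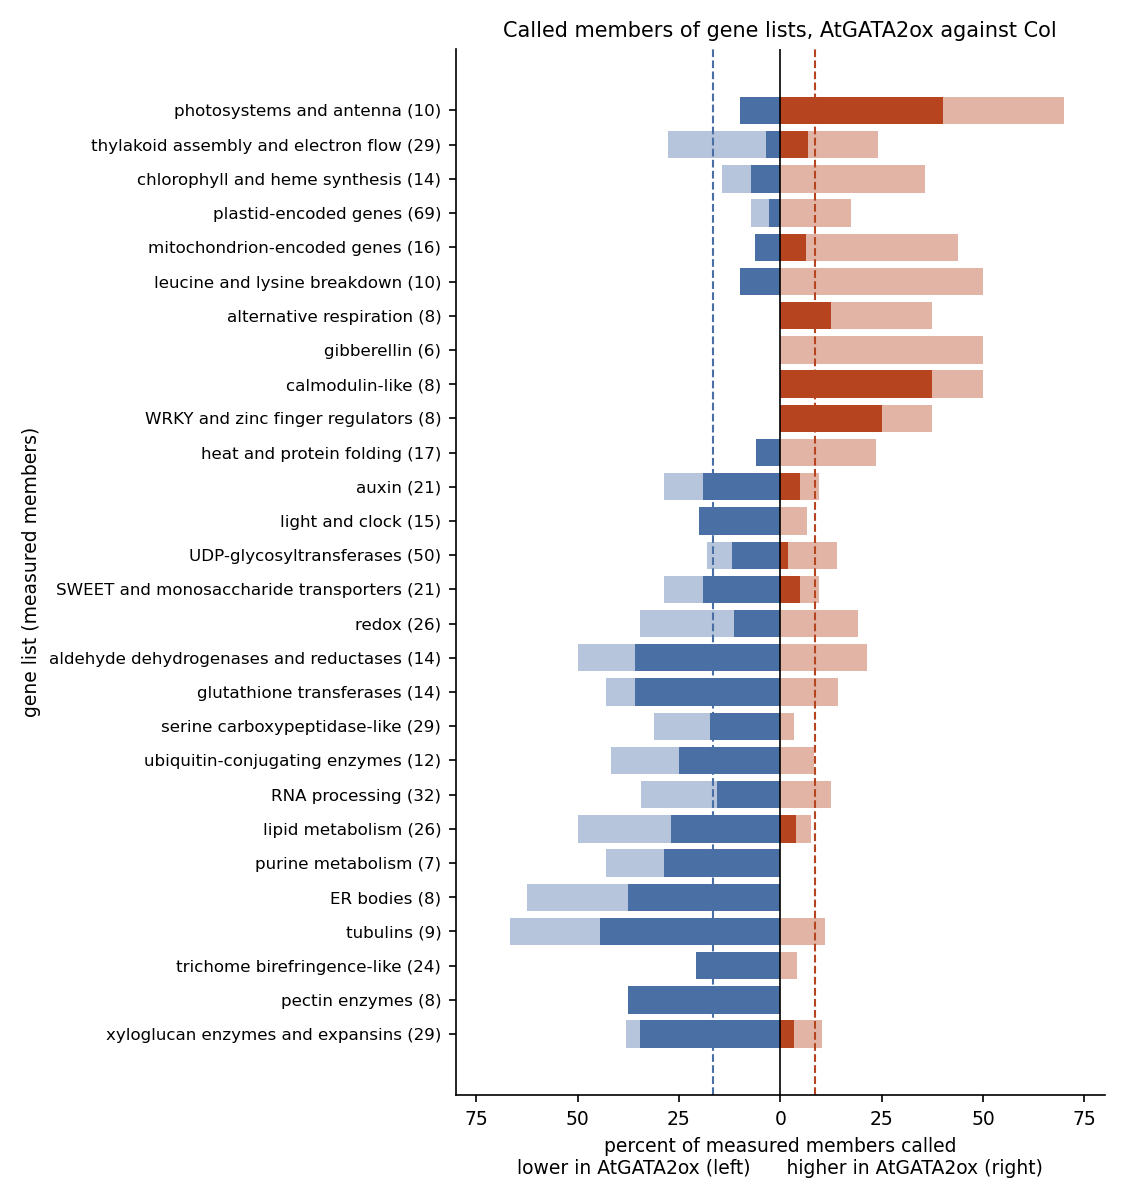
Percent of the measured members (number in brackets) of 28 of the 70 gene lists, picked after their values were seen, called lower (left of 0) or higher (right of 0) in AtGATA2ox against Col. Pale bars show calls on the deposited scale, dark bars those kept under all 4 scalings, and dashed lines the background over all named loci (16.5% lower and 8.61% higher). Among loci with a symbol these shares were 22.1% lower and 11.5% higher. To the right, the dark part is long only for photosystems and antenna, calmodulin-like genes and WRKY and zinc finger regulators, while all the bars to the left have a dark part.

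Regulators of light responses showed few calls. Of 15 measured light signalling and clock genes 1 rose, 3 fell and 11 were not called, near the background, with a median of -0.04. The gene that rose was SPT, a basic helix-loop-helix factor that restrains organ growth, at 1376.7, 1378.9 and 1832.4 in AtGATA2ox against 660.4, 723.6 and 779.6 in Col (log2 fold change 1.07 ± 0.15, adjusted p = 0.00018), which under scaling to the hybridisation controls was 0.02. The falls, all kept, were of the clock genes TIC (log2 fold change -1.73 ± 0.25, adjusted p = 0.00019) and GI (log2 fold change -0.96 ± 0.17, adjusted p = 0.00085) and of FHL. FHL, which helps phytochrome A enter the nucleus, read 180.2, 138.8 and 101.9 in AtGATA2ox against 396.8, 289.1 and 299.4 in Col (log2 fold change -1.24 ± 0.24, adjusted p = 0.0016). HYH, the homologue of the light-response factor HY5, read 45.2, 18.4 and 133.4 in AtGATA2ox against 3.8, 20 and 6.4 in Col, with every value but that of AtGATA2ox replicate 3 in the range of the Bacillus controls. Its difference of 2.45 ± 0.99 did not pass (adjusted p = 0.085), and passed without AtGATA2ox replicate 2 (3.12, adjusted p = 0.0438). LIP1 and CUL4 were not called as deposited (-0.26 ± 0.15 and -0.09 ± 0.35), nor was AFR (0.46 ± 0.25), which was called higher under quantile normalisation and median centring (0.89 and 0.80). The rises in the list were 2 without AtGATA2ox replicate 1 or 2.

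Of 6 measured brassinosteroid genes 1 rose and 2 fell. BAT1, an acyltransferase that modifies brassinosteroids, fell to 79.3, 54.6 and 148.1 in AtGATA2ox against 1284, 1146.5 and 1072.1 in Col, a 13.3-fold difference with no overlap (log2 fold change -3.74 ± 0.32, adjusted p = 3.1e-06, kept). The AtGATA2ox values of 79.3 and 54.6 are in the range of the Bacillus controls. BRH1, a RING finger gene that brassinosteroids repress, was at 6026.9, 4940.6 and 7835.5 in AtGATA2ox against 2397.3, 2874.7 and 3052.9 in Col (log2 fold change 1.16 ± 0.21, adjusted p = 0.00096). This rise kept its sign and lost its call under scaling to the hybridisation controls (0.11). BIM1, a partner of the brassinosteroid factor BES1, fell by 0.77 (adjusted p = 0.039), a call lost under quantile normalisation and median centring (-0.36 and -0.43) and without AtGATA2ox replicate 1 or 3 or Col replicate 1 or 2 (adjusted p up to 0.157). The receptor relative BRL1, the bHLH factor CES and the DNA topoisomerase component BIN4 were not called as deposited (-0.48 ± 0.56, 0.17 ± 0.75 and -1.08 ± 1.07).

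Among gibberellin genes 3 of 6 rose and none fell, and none of the 3 was kept. GID1B, a gibberellin receptor, read 955.7, 1651.3 and 1439.1 in AtGATA2ox against 441, 695.5 and 608.8 in Col (log2 fold change 1.20 ± 0.25, adjusted p = 0.0024, 0.15 under scaling to the hybridisation controls). SLY1, the F-box protein that marks DELLA repressors for breakdown, rose by 0.63 ± 0.14, which turned to -0.42 under that scaling. Its relative SLY2 rose by 1.41 ± 0.40 (adjusted p = 0.019), a call lost without AtGATA2ox replicate 3 or Col replicate 1 or 3 (adjusted p up to 0.0777). Of 21 auxin genes 2 rose and 6 fell, and the rises were 1 without AtGATA2ox replicate 3 or Col replicate 2. WAG2, a kinase that sets the polarity of auxin efflux, read 404.4, 242.6 and 440 in AtGATA2ox against 2014.4, 2129.1 and 4202 in Col (log2 fold change -2.90 ± 0.28, adjusted p = 7.9e-06, kept). The auxin-conjugating enzymes went opposite ways, with GH3.3 4.07-fold higher (log2 fold change 2.03 ± 0.25, adjusted p = 5.6e-05) and GH3.17 lower (log2 fold change -1.66 ± 0.34, adjusted p = 0.0022), both kept.

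Single genes of other hormones showed large differences. RR16, a type-A response regulator of cytokinin signalling, read 629.2, 693 and 608 in AtGATA2ox against 52.6, 38.7 and 37.5 in Col (log2 fold change 3.89 ± 0.31, adjusted p = 1.6e-06, kept). Its Col values are in the range of the Bacillus controls, so the size of this fold change is not exact. The other 7 measured response regulators were not called, except for 1 that was lower without AtGATA2ox replicate 1. JRG21, a jasmonate-regulated gene, read 313.4, 287.9 and 221.5 in AtGATA2ox against 23.3, 3.1 and 5.7 in Col, where the Col values are in the background range (log2 fold change 4.96 ± 0.92, adjusted p = 0.0012, kept). MYC3, a jasmonate-response factor, fell 3.65-fold (log2 fold change -1.87 ± 0.45, adjusted p = 0.007, kept), and EIN3, the main ethylene-response factor, fell by 0.78 (adjusted p = 0.005), a call lost under quantile normalisation and median centring (-0.51 and -0.44). The vascular signalling peptides CLE44 and CLE41 rose by 2.41 ± 0.36 and 1.16 ± 0.16. The rise of CLE44 was kept, and that of CLE41 was not called under scaling to the hybridisation controls (0.11).

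Genes that act on the primary cell wall were mostly lower where called. Of 29 xyloglucan enzymes and expansins, which loosen or remodel the wall, 11 fell and 3 rose, with 10 falls and 1 rise kept. The list's median was -0.43 as deposited, -0.23 under quantile normalisation and -0.09 after median centring. XTH19, a xyloglucan endotransglucosylase, read 213.2, 181.2 and 262.3 in AtGATA2ox against 4409.7, 3888.8 and 3832.6 in Col (log2 fold change -4.21 ± 0.20, adjusted p = 2.1e-08). EXLA2, an expansin-like gene, fell 6.18-fold, at 234 ± 57.6 in AtGATA2ox and 1442 ± 295 in Col (SD, n = 3 each). The expansins EXPB1 and EXPA8 fell 3.75-fold and 4.23-fold, both kept. XTH32 rose 3.48-fold and was kept (log2 fold change 1.80 ± 0.19, adjusted p = 1.4e-05), and EXPA16 rose 3.31-fold and lost its call under scaling to the hybridisation controls (0.68). CSLC04, which makes the xyloglucan backbone, was at 1011.6, 1216.7 and 1108.6 in AtGATA2ox against 3180, 2364.6 and 2442.2 in Col (log2 fold change -1.25 ± 0.16, adjusted p = 5.6e-05, kept).

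Single genes of acetylation, pectin and cellulose-cutting enzymes were lower too. The share called lower was 20.8% for the acetylation genes, 37.5% for pectin enzymes and 20% for endoglucanases. For the acetylation genes and endoglucanases this is near the 22.1% of loci with a symbol. Of 24 trichome birefringence-like genes, a family of wall polysaccharide acetyltransferases, 5 fell, all kept, and 1 rose, which was not kept. The falls were 8 without AtGATA2ox replicate 1, and the rises 0 without AtGATA2ox replicate 2 or Col replicate 3. TBL38 read 201.2, 125.8 and 216 in AtGATA2ox against 2640.6, 3312.5 and 2078.3 in Col (log2 fold change -3.89 ± 0.24, adjusted p = 2e-07), and TBL37, TBL36 and TBL45 fell 5.93-fold, 5.05-fold and 4.35-fold. Among 8 pectin enzymes 3 fell, all kept, and none rose. The 3 are pectin methylesterase genes, and the brightest of them, ATPMEPCRD, was at 854.3, 1079.2 and 1403.6 in AtGATA2ox against 14319, 14091.9 and 13108.4 in Col (log2 fold change -3.66 ± 0.17, adjusted p = 2e-08). PME61 and PMEPCRF fell 9.06-fold and 4.49-fold. Of 15 endoglucanases of family GH9, which cut glucan chains, 3 fell and none rose, and the rises were 2 without AtGATA2ox replicate 3. GH9B8 read 108.1, 99.9 and 57.8 in AtGATA2ox against 649.9, 614.7 and 617.7 in Col (log2 fold change -2.86 ± 0.26, adjusted p = 4.1e-06), and GH9C2 fell 3.54-fold, both kept.

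Of 12 peroxidases and laccases, enzymes that cross-link the wall and polymerise lignin, 4 fell and 1 rose, and the rises were 2 without AtGATA2ox replicate 3. PRXR1 read 1201.6, 1195 and 718.7 in AtGATA2ox against 11414.8, 12415 and 12875 in Col (log2 fold change -3.59 ± 0.19, adjusted p = 8.5e-08, kept), while PRX52 rose by 1.94 ± 0.46 (adjusted p = 0.0059) and lost its call under scaling to the hybridisation controls (0.89). Every Col value of PRX52 is in the range of the Bacillus controls. Of 5 secondary wall genes 2 fell, both of xylan synthesis and both kept. GUT2 was at 174.6, 190.5 and 95.8 in AtGATA2ox against 401.2, 326.5 and 481.2 in Col (log2 fold change -1.43 ± 0.28, adjusted p = 0.0018). IRX15-L read 140.6, 25.5 and 73.5 in AtGATA2ox against 205.1, 200.2 and 311.4 in Col (log2 fold change -1.84 ± 0.51, adjusted p = 0.015), a difference of -1.19 without AtGATA2ox replicate 2, and its call was lost without Col replicate 3 (adjusted p = 0.0727).

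**Figure D3:**
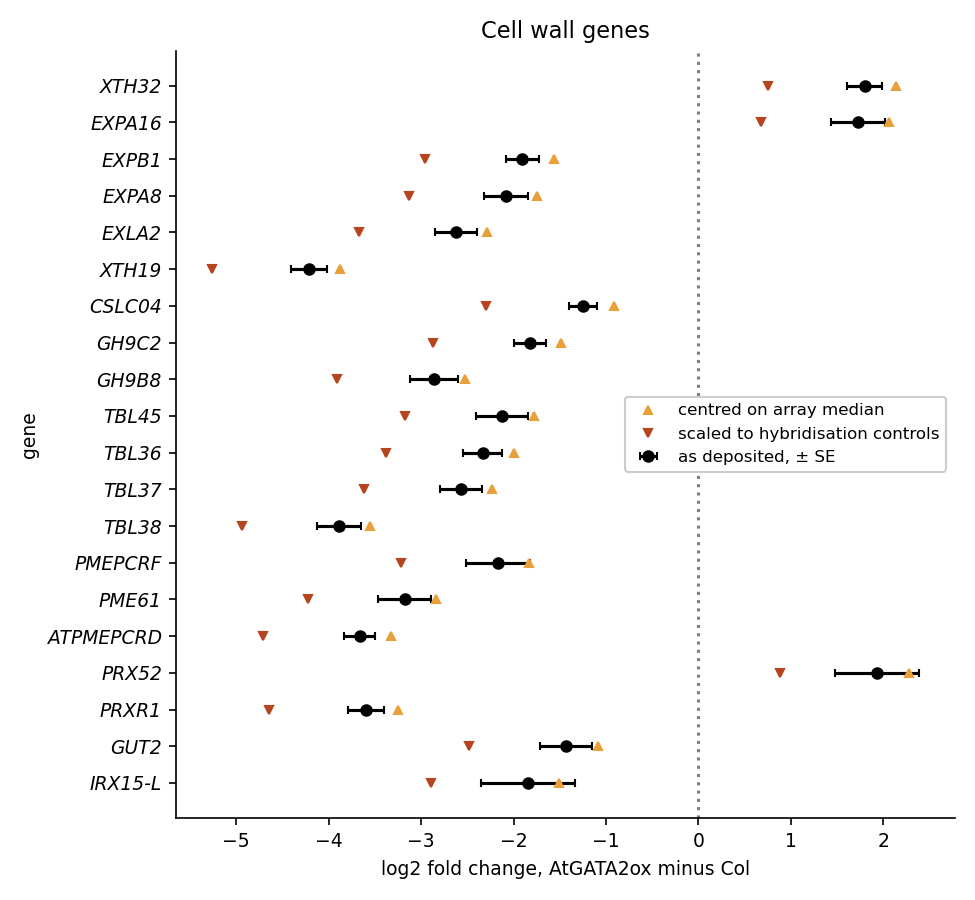
Log2 fold change, AtGATA2ox minus Col (horizontal axis), of 20 named cell wall genes, as deposited with the SE from limma (circles), after median centring (triangles up) and after scaling to the hybridisation controls (triangles down). XTH32, EXPA16 and PRX52 lie above 0 and the other 17 below 0 under each of the 3 scalings.

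Tubulin genes were mostly lower. Of 9 tubulin genes 6 fell and 1 rose, with 4 falls kept and a median of -0.83 (-0.49 after median centring). TUB5 read 968.6, 831.6 and 729.8 in AtGATA2ox against 4668.6, 4224.9 and 3929.6 in Col (log2 fold change -2.35 ± 0.16, adjusted p = 3.6e-07), and TUA1, TUB1 and TUB7 fell by 1.06, 0.96 and 0.96 on the log2 scale. TUA6, the member that rose, read 24047.8, 21992 and 24274.7 in AtGATA2ox against 15476.6, 14064.4 and 14888 in Col, and its difference of 0.66 ± 0.16 turned to -0.39 under scaling to the hybridisation controls and was not called under quantile normalisation (0.12). Microtubule-associated genes moved in both directions, with 4 of 37 higher and 8 lower (10.8% and 21.6%, near the background). The rises were 2 without Col replicate 2, and the falls were 5 without AtGATA2ox replicate 3, Col replicate 1 or Col replicate 3. IQD22, a calmodulin-binding protein of the microtubule array, rose to 2276.4, 3089.2 and 2422.4 in AtGATA2ox against 415.5, 374.9 and 494.1 in Col (log2 fold change 2.59 ± 0.23, adjusted p = 3.2e-06, kept). TON1B, which organises the cortical array, and ATMAP65-6, a microtubule cross-linker, fell 2.35-fold and 2.47-fold, both kept. Of 25 actin and myosin genes 3 fell and 1 rose (12% and 4%, below the background), all kept. The rises were 2 without AtGATA2ox replicate 1. WLIM1 and PLIM2b, which bundle actin filaments, and the actin gene ACT11 fell 3.38-fold, 3.24-fold and 2.3-fold.

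Calmodulin-like genes, which relay calcium signals, were higher where called. Of 8 calmodulin-like genes 4 rose, 3 of them kept, and none fell, with a median of 1.14 (0.09 under scaling to the hybridisation controls). AT1G76640, listed as CML39, read 2570.4, 2427.9 and 1936 in AtGATA2ox against 26.2, 22.2 and 83.1 in Col (log2 fold change 5.93 ± 0.51, adjusted p = 2.8e-06), with 2 of the 3 Col values in the range of the Bacillus controls. CML37 and CML38 were at 269.9, 784.9 and 233.5 in AtGATA2ox against 7, 9.1 and 45.8 in Col, and at 387.6, 851.1 and 229.4 in AtGATA2ox against 35.7, 76 and 136.3 in Col, with the CML37 values in Col, and the lowest CML38 value in Col, in the range of the Bacillus controls. Of 8 WRKY and zinc finger regulators of stress responses 3 rose, 2 of them kept, and none fell (1 fell without AtGATA2ox replicate 3), while the list's median of 0.89 turned to -0.15 under scaling to the hybridisation controls. STZ, a zinc finger repressor induced by salt, cold and drought, read 2864.5, 2618.3 and 2592.3 in AtGATA2ox against 144.1, 472.2 and 522.8 in Col (log2 fold change 3.03 ± 0.41, adjusted p = 0.00011). WRKY6 rose 5.03-fold (log2 fold change 2.33 ± 0.39, adjusted p = 0.00058), and WRKY22 rose by 1.34 ± 0.19 and was not kept (0.29 under that scaling).

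Defence proteins moved both ways. Of 19 defensins, thionins and chitinases 2 rose and 4 fell, all kept. The shares called, 10.5% and 21.1%, are near the background. The 2 rises were plant defensins. LCR67 read 714.1, 1356.3 and 664 in AtGATA2ox against 56.5, 43.3 and 14.3 in Col (log2 fold change 4.67 ± 0.52, adjusted p = 2.2e-05), with the Col values in the range of the Bacillus controls. PDF1.4 read 1876.2, 8090.3 and 5038.4 in AtGATA2ox against 127.9, 310.8 and 232.3 in Col, with the highest value on AtGATA2ox replicate 2 (log2 fold change 4.33 ± 0.49, adjusted p = 2.6e-05). The falls included the chitinase ChiC (11.1-fold), the osmotin OSM34 (11.7-fold) and the defensin-like LCR68 (2.99-fold). Of 8 genes of ER bodies, compartments that store a beta-glucosidase for defence, 5 fell, 3 of them kept, and none rose. JAL22, a jacalin-related lectin, read 1763.4, 1592.5 and 2129 in AtGATA2ox against 12195.2, 12944.5 and 12380.2 in Col (log2 fold change -2.78 ± 0.14, adjusted p = 6.4e-08). NAI1, the transcription factor needed for ER bodies, and NAI2, a protein that forms them, fell 2.02-fold and 2.42-fold. Of 18 immune receptors and kinases 2 rose and 5 fell. FER and THE1, receptor kinases that sense the state of the wall, fell 3.26-fold and 4.13-fold, both kept. BIK1, a cytoplasmic kinase of immune signalling, read 1715.7, 2479.1 and 1419.1 in AtGATA2ox against 955.5, 821.3 and 894.7 in Col (log2 fold change 1.03 ± 0.19, adjusted p = 0.001), and its difference turned to -0.02 under scaling to the hybridisation controls.

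Cold, drought and redox genes were split. Of 17 cold, drought and late embryogenesis genes 3 rose and 5 fell, with 1 fall kept. That fall was of COR47, a dehydrin induced by cold, at 297.2, 334 and 375.8 in AtGATA2ox against 4368.9, 4316.8 and 3465.6 in Col (log2 fold change -3.59 ± 0.16, adjusted p = 1.8e-08). DI21, a drought-induced gene, rose by 1.45 ± 0.21 (adjusted p = 0.00021) and lost its call under scaling to the hybridisation controls (0.40). Of 14 ER folding and stress genes 1 rose and 2 fell (7.14% and 14.3%, below the background), with 1 fall kept. The median was -0.44 (-0.10 after median centring). The rises were 2 without AtGATA2ox replicate 1, and the falls 1 without Col replicate 2 and 5 without AtGATA2ox replicate 2. BZIP60, a factor of the unfolded protein response, rose to 5106.2, 9264.4 and 8303.3 in AtGATA2ox against 1900.2, 2073.8 and 3134.8 in Col (log2 fold change 1.66 ± 0.23, adjusted p = 0.00015), a call lost under scaling to the hybridisation controls (0.61). The falls were of ATERDJ2A (log2 fold change -1.80 ± 0.42, adjusted p = 0.0057, kept) and PDIL5-1 (log2 fold change -0.89 ± 0.24, adjusted p = 0.014), the second lost after median centring (-0.55) and without AtGATA2ox replicate 3 or Col replicate 2 (adjusted p up to 0.057). Of 26 redox genes 5 rose and 9 fell, and the 9 falls were 4 without Col replicate 1 and 5 without Col replicate 2. CCS, the chaperone that loads copper into superoxide dismutase, fell 3.59-fold (log2 fold change -1.85 ± 0.21, adjusted p = 2.7e-05), and the glutathione reductase GR1 and the methionine sulfoxide reductase MSRB5 fell 2.56-fold and 2.91-fold, all kept.

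**Figure D4:**
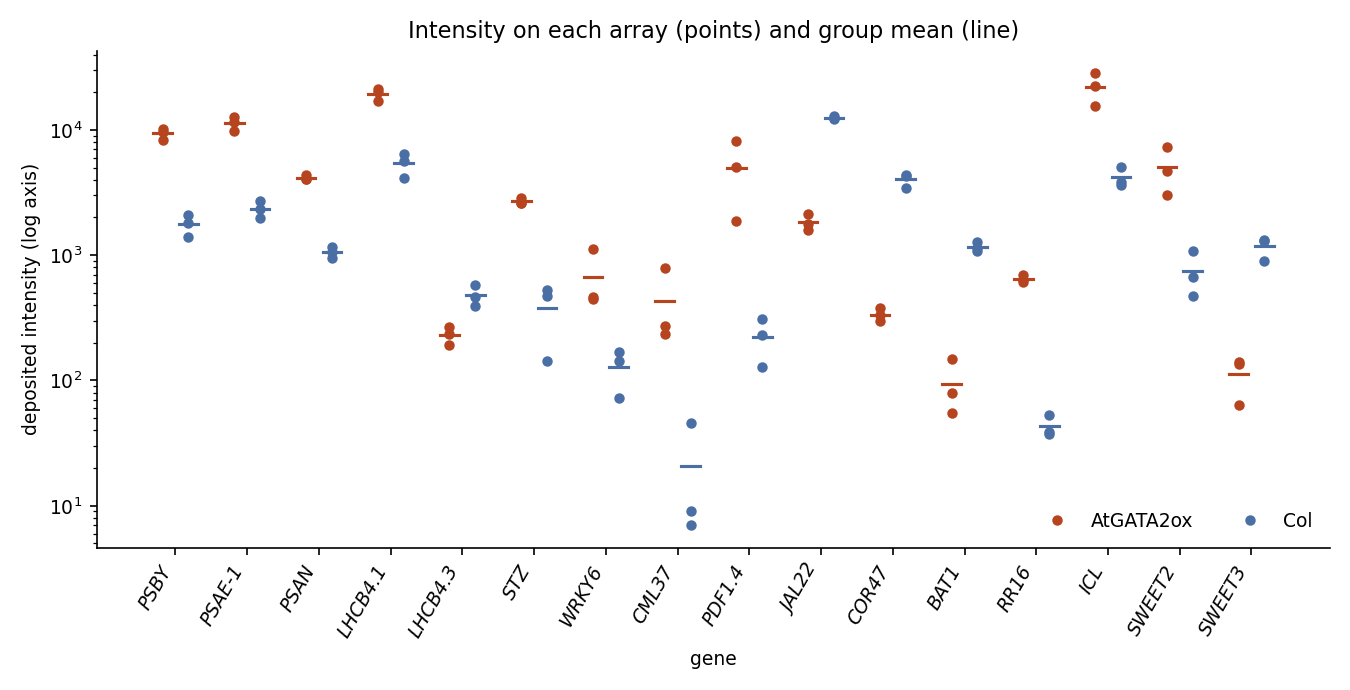
Deposited intensity on each array (points, log axis) and group mean (lines) of 16 named genes, AtGATA2ox left of Col for each gene. The genes drawn are ones whose arrays did not overlap between the groups, so the gap between groups follows from the choice. The AtGATA2ox arrays lie above Col for PSBY, PSAE-1, PSAN, LHCB4.1, STZ, WRKY6, CML37, PDF1.4, RR16, ICL and SWEET2 and below Col for LHCB4.3, JAL22, COR47, BAT1 and SWEET3.

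Enzymes that modify small molecules were called on both sides. Of 50 UDP-glycosyltransferases 7 rose and 9 fell, with 1 rise and 6 falls kept, and the 9 falls were 5 without Col replicate 2 or 3. The shares were 14% higher and 18% lower, the falls near the background. UGT88A1 read 2891.5, 3822.8 and 4133.1 in AtGATA2ox against 984.8, 770.2 and 934.8 in Col (log2 fold change 2.00 ± 0.16, adjusted p = 1.9e-06, kept). UGT72E2 and UGT72E1, which glucosylate monolignols, fell 10.3-fold and 3.32-fold, and UGT74B1, of glucosinolate synthesis, fell 3.23-fold, all kept. GT72B1, which conjugates foreign compounds, was at 263.6, 302.1 and 113.7 in AtGATA2ox against 1400.1, 1353.1 and 1436.6 in Col (log2 fold change -2.74 ± 0.31, adjusted p = 2.3e-05, kept). Of 14 glutathione transferases 6 fell, 5 of them kept, and 2 rose, neither of them kept, and the rises were 0 without AtGATA2ox replicate 2 or Col replicate 1 and 1 without AtGATA2ox replicate 1 or 3 or Col replicate 2. GSTU26 fell to 471.7, 376.5 and 369.1 in AtGATA2ox against 2030.3, 1821.5 and 1381.1 in Col (log2 fold change -2.09 ± 0.18, adjusted p = 3.2e-06), and GSTL3 fell 3.35-fold. Of 14 aldehyde dehydrogenases, glyoxalases and reductases 7 fell, 5 of them kept, and 3 rose, none kept. ALDH2C4, which makes ferulic and sinapic acid, fell 2.74-fold, and the glyoxalases GLX2-1 and GLX2-5 fell 3.03-fold and 2.39-fold. HCT, an early enzyme of the lignin branch, fell by 0.62 (adjusted p = 0.0097), a call lost after median centring (-0.28). Of 20 phenylpropanoid and flavonoid genes only 3 fell (15%, below the background), none rose and 17 were not called. Their median was 0.27, and the rises were 1 without Col replicate 1 or 2.

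In lipid metabolism 13 of 26 genes fell, 7 of them kept, and 2 rose (4 without AtGATA2ox replicate 1). The list's median was -0.78 (-0.44 after median centring). AAPT2, which completes phosphatidylcholine and phosphatidylethanolamine, read 574.7, 871.4 and 508.1 in AtGATA2ox against 2415.5, 2238.4 and 2324.5 in Col (log2 fold change -1.87 ± 0.19, adjusted p = 1e-05). PMEAMT, of phosphocholine synthesis, and ACS, which activates acetate, fell 3.13-fold and 2.59-fold, both kept. FATB, the thioesterase that releases saturated fatty acids, fell by 0.71 (adjusted p = 0.0013), a call lost after median centring (-0.38). The rises were of ICL and of the sterol enzyme CPI1, the second lost under scaling to the hybridisation controls (0.19). ICL, the isocitrate lyase of the glyoxylate cycle, which turns stored fat into sugar in seedlings, read 15496.7, 28296.6 and 22231.6 in AtGATA2ox against 3619.3, 3868.5 and 5048.7 in Col (log2 fold change 2.37 ± 0.24, adjusted p = 1.2e-05, kept). PPDK, which makes phosphoenolpyruvate from pyruvate, rose beside it at 3356, 7174.6 and 4345.6 in AtGATA2ox against 828.7, 970.4 and 1018.4 in Col (log2 fold change 2.33 ± 0.26, adjusted p = 2.2e-05, kept).

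Purine breakdown genes were lower where called. Of 7 purine metabolism genes 3 fell, 2 of them kept, and none rose. Both kept falls are of allantoin breakdown, with AAH at 339.4, 233.9 and 236.9 in AtGATA2ox against 1085.9, 1391.5 and 1453.8 in Col (log2 fold change -2.29 ± 0.19, adjusted p = 2.2e-06) and ALN 3.01-fold lower (log2 fold change -1.59 ± 0.20, adjusted p = 7.5e-05). Of 10 genes for the breakdown of leucine, its relatives and lysine 5 rose and 1 fell, and the falls were 2 without AtGATA2ox replicate 2. ETFQO, which passes electrons from this breakdown to the respiratory chain, rose to 856.5, 1308.4 and 1028.5 in AtGATA2ox against 501.5, 495 and 413.6 in Col (log2 fold change 1.16 ± 0.19, adjusted p = 0.00048), and MCCB, a subunit of methylcrotonyl-CoA carboxylase, rose by 1.14 ± 0.24, calls lost with values of 0.11 and 0.09 under scaling to the hybridisation controls. ATBCAT-5, a branched-chain aminotransferase, fell 2.56-fold. Of 8 genes of alternative respiration and its carriers 3 rose, 1 of them kept, and none fell. The kept rise was of NDB4, singled out after its values were seen, at 133.5, 42.1 and 70.3 in AtGATA2ox against 2.2, 16.6 and 2.8 in Col (log2 fold change 3.64 ± 0.91, adjusted p = 0.0086). All of these values but that of AtGATA2ox replicate 1 are no brighter than the Bacillus controls. NDB2, an external NADH dehydrogenase of mitochondria, read 1357.5, 1793.7 and 1721.7 in AtGATA2ox against 438.4, 597 and 826.9 in Col (log2 fold change 1.42 ± 0.23, adjusted p = 0.00049) and lost its call under that scaling (0.37), and CYTC-1, a cytochrome c, rose by 0.85 ± 0.16 and turned to -0.20.

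Of 21 sugar transporters 6 fell and 2 rose, with 4 falls and 1 rise kept. SWEET2, a vacuolar sugar carrier, rose to 3051.6, 4665.3 and 7336.9 in AtGATA2ox against 675.2, 1084.4 and 473 in Col (log2 fold change 2.74 ± 0.32, adjusted p = 2.9e-05, kept). SWEET3 fell to 135.3, 63.7 and 139.9 in AtGATA2ox against 1300.5, 1333.2 and 897.3 in Col (log2 fold change -3.43 ± 0.32, adjusted p = 5.5e-06), and SWEET11, of phloem loading, and the vacuolar fructose carrier SWEET17 fell 3.02-fold and 3.98-fold. TMT2, a vacuolar monosaccharide transporter, read 177.8, 196.8 and 125.9 in AtGATA2ox against 613.7, 567.7 and 829.5 in Col (log2 fold change -2.01 ± 0.21, adjusted p = 1.4e-05, kept). Among other carriers GTR2, which imports glucosinolates, and the manganese transporter MTP11 fell 3.37-fold and 5.45-fold, and OCT5, of the organic cation family, rose 3.71-fold, all kept. More members of their lists rose than fell. Of 24 cation, metal and proton transport genes 4 rose and 2 fell, and of 12 nitrate and peptide transporters 2 rose and 1 fell. The share lower was 8.33% in each, below the background. The nitrate and peptide falls were 2 without AtGATA2ox replicate 2.

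Among genes that met the rule for naming, the 11th to 25th largest rises ran from log2 5.40 to 4.43 and the 11th to 25th largest falls from -4.40 to -3.90, and all 30 were kept under all 4 scalings. Most are loci that the annotation gives no symbol, and none of these is given a role here. AT2G16660 read 3109.9, 4870.8 and 6043.8 in AtGATA2ox against 153.5, 105.4 and 73.3 in Col (log2 fold change 5.40 ± 0.28, adjusted p = 6.7e-08), and AT5G19110 read 8065.9, 4148 and 7520.9 in AtGATA2ox against 174, 225.3 and 199.7 in Col (log2 fold change 4.98 ± 0.29, adjusted p = 1.2e-07). AT1G15010 and AT1G56060 rose 22.6-fold and 35.2-fold, with every Col value above the brightest Bacillus control of the Col arrays. Of the falls, AT4G33550 was the one with the highest Col level among those without a symbol, at 173.9, 136.5 and 113.8 in AtGATA2ox against 2128.9, 1763.2 and 3057.4 in Col (log2 fold change -4.01 ± 0.23, adjusted p = 1.2e-07). AT2G27360 fell 17.7-fold, AT2G36430 21.1-fold and AT1G30760 15-fold, with all AtGATA2ox values but one of 94.4 for AT2G27360 in the range of the Bacillus controls.

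Several of these genes differed in bri1-116 as well. Both comparisons use the same 3 Col arrays, so the test between the genotypes is the difference between AtGATA2ox and bri1-116, which was called for 26.8% of all probe sets. The bri1-116 arrays also lay above Col on average in the 3'/5' ratios. For actin the ratio was 21.3 ± 10.4 (11.8 ± 3.4 in Col), with overlap, from 14.5 in bri1-116 and up to 15.7 in Col. It was 2.58 ± 0.232 for GAPDH (1.69 ± 0.145 in Col) and 3.02 ± 0.565 for ubiquitin (2.27 ± 0.081 in Col). The hybridisation controls of bri1-116 averaged 10.59 ± 0.173 on the log2 scale (10.11 ± 0.0896 in Col). The part of these in what both genotypes share was not tested. All values here are on the deposited scale. PSBY differed from Col by 2.43 ± 0.17 in AtGATA2ox and by 2.12 ± 0.17 in bri1-116, and PSAE-1 by 2.28 ± 0.17 in AtGATA2ox and by 2.16 ± 0.17 in bri1-116. The difference between the genotypes did not pass for PSBY (0.31 ± 0.17 in AtGATA2ox minus bri1-116, adjusted p = 0.22), PSAE-1 (0.12 ± 0.17 in AtGATA2ox minus bri1-116, adjusted p = 0.67) or HEMB1 (-0.05 ± 0.15 in AtGATA2ox minus bri1-116, adjusted p = 0.86). It did not pass for WAG2 (0.04 ± 0.28 in AtGATA2ox minus bri1-116, adjusted p = 0.94) and SWEET3 (0.01 ± 0.32 in AtGATA2ox minus bri1-116, adjusted p = 0.99) either, both lower than Col in both genotypes. XTH19, BAT1, COR47 and JAL22 were lower than Col in both genotypes, by a larger amount in AtGATA2ox. The difference between the genotypes was -0.95 ± 0.20 for XTH19 (adjusted p = 0.0027), -1.35 ± 0.32 for BAT1 (adjusted p = 0.007), -1.60 ± 0.16 for COR47 (adjusted p = 1.2e-05) and -1.82 ± 0.14 for JAL22 (adjusted p = 1.7e-06).

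Other genes called in AtGATA2ox were not called in bri1-116 or went the opposite way there. STZ read 252.2, 143.6 and 327.9 in bri1-116, and the genotypes differed (3.55 ± 0.41 in AtGATA2ox minus bri1-116, adjusted p = 3.3e-05). RR16 differed between the genotypes by 3.08 ± 0.31 (adjusted p = 1.4e-05) and PPDK by 2.80 ± 0.26 (adjusted p = 5.9e-06), and neither was called in bri1-116 against Col (adjusted p = 0.11 and 0.29). The Col values of RR16 are in the range of the Bacillus controls, so for RR16 the comparison of bri1-116 with Col decides little. SWEET2 and ICL were higher than Col in AtGATA2ox and lower than Col in bri1-116, with 2.37 ± 0.24 and -0.77 ± 0.24 for ICL (adjusted p = 0.049 in bri1-116). The difference between the genotypes was 4.09 ± 0.32 for SWEET2 and 3.14 ± 0.24 for ICL, with adjusted p of at most 1.5e-06. AT1G76640 read 7, 10.3 and 16.2 in bri1-116, in the range of the Bacillus controls, as did 2 of its 3 Col values, so no difference between bri1-116 and Col is given for it. TBL36 and FHL went the other way round, with -2.34 ± 0.21 in AtGATA2ox and 0.85 ± 0.21 in bri1-116 for TBL36, and -1.24 ± 0.24 in AtGATA2ox and 1.49 ± 0.24 in bri1-116 for FHL. Both differed between the genotypes (adjusted p = 4.4e-07 and 4e-06). GH9B8 and TMT2 were lower in AtGATA2ox than in bri1-116, with differences of -3.26 ± 0.26 (adjusted p = 1.7e-06) and -2.48 ± 0.21 (adjusted p = 3e-06).

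**Figure D5:**
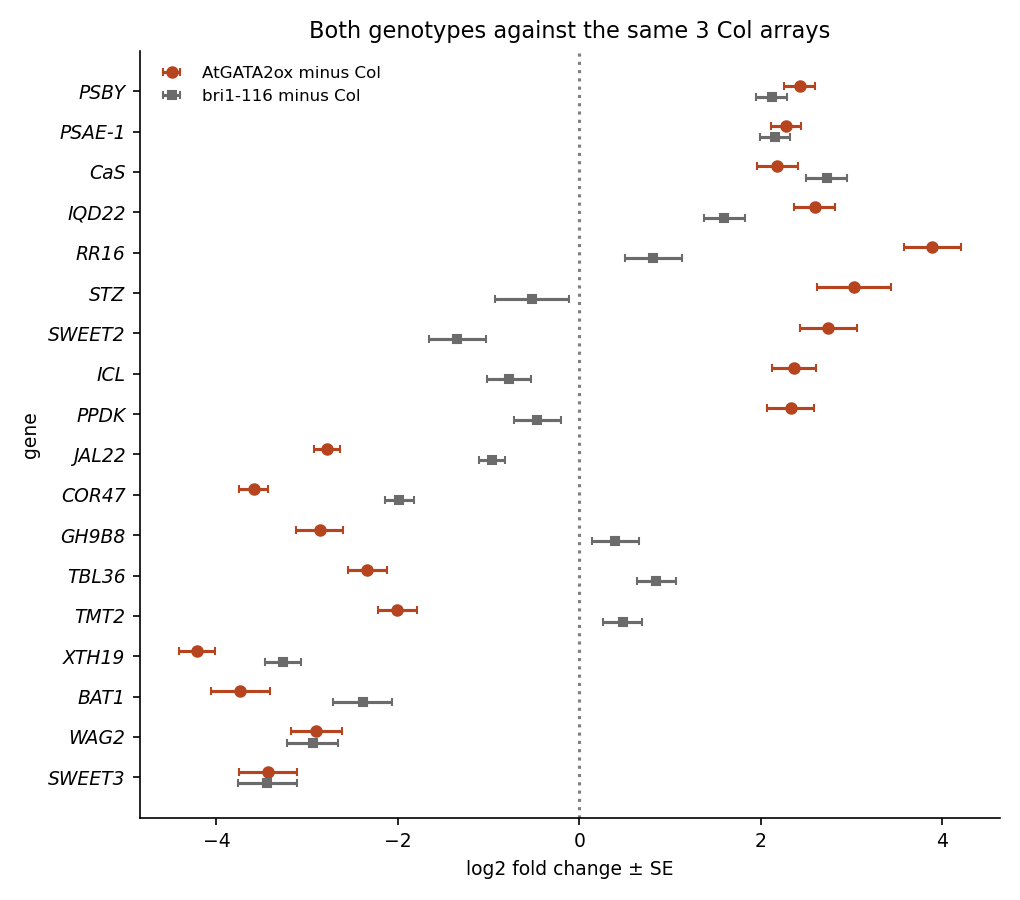
Log2 fold change ± SE (horizontal axis) of 18 named genes in AtGATA2ox (circles) and bri1-116 (squares), each against the same 3 Col arrays. The chloroplast genes PSBY, PSAE-1 and CaS lie on the same side of 0 in both genotypes, while SWEET2 and ICL lie above 0 in AtGATA2ox and below 0 in bri1-116.

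Markers of single tissues gave few calls, and in whole seedlings fewer cells of a type and less RNA per cell cannot be told apart. Of 4 stomatal lineage genes none was called (1 was lower without AtGATA2ox replicate 1). The lineage factors SPCH, MUTE and FMA read 4.8 to 18.9, 2.6 to 23.2 and 9.5 to 119.4 over all AtGATA2ox and Col arrays, in the range of the Bacillus controls except 1 AtGATA2ox and 1 Col value of FMA, and the peptide gene STOMAGEN read 774.5, 424.5 and 607.4 in AtGATA2ox against 1020.5, 759.3 and 873.2 in Col (adjusted p = 0.081, and 0.0265 without AtGATA2ox replicate 1). Of 6 root hair genes 1 rose and 1 fell, and the falls were 0 without AtGATA2ox replicate 2 or Col replicate 1 or 2 and 2 without AtGATA2ox replicate 3. The rise was of CSLD2, at 2495.5, 3141.7 and 2621.1 in AtGATA2ox against 1288.2, 1323.8 and 1524.7 in Col (log2 fold change 0.99 ± 0.15, adjusted p = 0.00027). It turned to -0.056 under scaling to the hybridisation controls. The fall was of EXPA18, at 29.6, 3.7 and 15.3 in AtGATA2ox against 71, 102.9 and 67.6 in Col (log2 fold change -2.59 ± 0.75, adjusted p = 0.02). All AtGATA2ox values of EXPA18 are in the range of the Bacillus controls. The EXPA18 call was lost without AtGATA2ox replicate 2 or Col replicate 1 or 2 (adjusted p up to 0.0797). EXPA7, also expressed in root hairs, was not called (0.40 ± 0.79). Of 20 meiosis and gamete genes 1 rose, 1 fell and 18 were not called, and the falls were 0 without Col replicate 2. Only 4 of these 20 had a mean of at least 124.5, the median of all values, in AtGATA2ox or Col. For the dimmer genes the lack of a call decides little. The part of tissue makeup in the differences above was not tested.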

How the data were processed

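Each array of the authors' deposited table gives a linear intensity for every probe set, from 0.1 to 61453.6 over the table. The submitters' processing notes name MAS5 and GCRMA, without their roles. The deposited arrays share a mean of 500 to 500.1 after trimming 2% at each end. cRNA was made from 10 µg of total RNA, per the labels' protocols. The genome build is not given in the sources used here.

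Intensities were used as log2(value + 1) without further scaling. All 9 arrays entered a single linear model in limma 3.58.1 under R 4.3.3 (lmFit, then eBayes with trend), which left 6 residual degrees of freedom. The p-values were adjusted by Benjamini-Hochberg over 22746 probe sets. Precision is limited by 3 arrays per group. Alternatives were quantile, median and hybridisation-control scaling, a pseudocount of 50, no dimmest 40%, only 6 arrays, no trend, a replicate block and each array left out. Of the 13513 probe sets with 1 gene, 13436 matched RefSeq (TAIR10.1), used for names only; of the other probe sets 503 had several genes and 8730 had none listed.

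The members, the lists and the tests were chosen with earlier results of these data known, and the 70 lists were matched by symbol after the annotation was read. Named genes have 1 locus, a call, no overlap of arrays and a mean of at least 124.5 (the median of all values) in 1 group. They are up to 6 per list, the 11th to 25th largest rises and falls, up to 4 per theme kept under all scalings, and any light, brassinosteroid or tissue marker gene. The text names a part of them.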

Additional observations from a re-analysis of the deposited data

How the results depend on the processing

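The scaling between arrays moved the results most. After median centring 3465 probe sets were higher and 2501 lower, and after scaling to the hybridisation controls 421 were higher and 12046 lower, against 2211 and 4275 as deposited. List members called lower were 157 after median centring, and scaling to the hybridisation controls gave 32 higher and 665 lower, against 166 and 258. Under that scaling the rises of SLY1 (-0.42), CHLM (-0.11), HEME1 (-0.083), TUA6 (-0.39), BIK1 (-0.016), CYTC-1 (-0.20), ATG8E (-0.13) and CSLD2 (-0.056) changed sign. The cause was not tested. Quantile normalisation, log2(value + 50), the filter on dim probe sets, the fit of 6 arrays and eBayes without a trend kept both counts within 1.5 times, at 1711 to 2685 higher and 2998 to 4378 lower. Leaving out each array in turn gave 1725 to 2269 higher, 3069 to 4456 lower, 135 to 160 list members higher and 190 to 273 lower. Of the calls kept under all scalings, 418 to 421 rises and 2275 to 2389 falls stayed called in the same direction. Calls of named genes that rested on 1 array are given with them, as are such moves of lists whose counts are printed. Lists without printed counts moved too. The exocyst, SNARE and ESCRT genes had 11 falls with all arrays and 3 without Col replicate 1.

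Same-numbered arrays of the groups did not deviate together (r = 0.018, -0.018 and 0.005), so they share only a number. The replicate block gave 2204 higher, 4256 lower, 165 list members higher and 263 lower, and all 421 rises and 2403 falls kept under the scalings stayed called. The 3 arrays per group limit the precision, values near the Bacillus controls may be background, and 8730 probe sets without a listed gene stay unnamed.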

Other observations

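Protein turnover genes were mostly lower where called. Of 29 serine carboxypeptidase-like genes 9 fell, 5 of them kept under all 4 scalings, and 1 rose, and the 9 falls were 5 without Col replicate 1 or 2, and the rise was lost without any one array other than AtGATA2ox replicate 2. scpl25 read 1091.9, 1430.9 and 1060.7 in AtGATA2ox against 5005.6, 5032.2 and 4631.6 in Col (log2 fold change -2.04 ± 0.15, adjusted p = 9.7e-07), and scpl48 fell 9.99-fold. GAMMA-VPE, a vacuolar protease, was at 743.7, 1473.4 and 1418.7 in AtGATA2ox against 5516.6, 5915.1 and 5723.8 in Col (log2 fold change -2.30 ± 0.22, adjusted p = 6.9e-06, kept), and the subtilase SBTI1.1 fell 7.85-fold. SBTI1.1 values of 48.9 and 52.5 in AtGATA2ox are in the range of the Bacillus controls. Of 12 ubiquitin-conjugating enzymes 5 fell and 1 rose, among them UBC22 at 494.7, 720.9 and 512.6 in AtGATA2ox against 1737.4, 1787.3 and 1541.8 in Col (log2 fold change -1.57 ± 0.18, adjusted p = 2.7e-05, kept). The ubiquitin ligases PUB22 and PUB19 went opposite ways (2.02 ± 0.37 and -1.13 ± 0.26), the first not called under scaling to the hybridisation controls (0.97). Of 11 autophagy genes 2 rose and 3 fell. ATG8E rose by 0.92 ± 0.20, which turned to -0.13 under scaling to the hybridisation controls, and ATG3 fell by 1.16 and was kept.

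Membrane traffic and gene expression genes held single members with kept calls. Of the exocyst, SNARE and ESCRT genes 20% were called higher and 27.5% lower, with 1 rise and 2 falls kept. PRA1.B4, a Rab-binding protein of the secretory route, read 6929.7, 6728.1 and 7258.5 in AtGATA2ox against 1915.6, 1839.5 and 2005.4 in Col (log2 fold change 1.86 ± 0.13, adjusted p = 5.3e-07, kept), and RAB6A, a GTPase of Golgi traffic, fell 2.7-fold. The tetraspanins TET9 and TET2 went opposite ways, 5.47-fold higher and 5.13-fold lower, both kept. HIS1-3, a linker histone induced by drought, was at 62.6, 127.8 and 79.5 in AtGATA2ox against 539.7, 465.6 and 624.3 in Col (log2 fold change -2.63 ± 0.26, adjusted p = 9.5e-06, kept), and HON4, of the same histone class, fell 2.84-fold. The HIS1-3 values of 62.6 and 79.5 are in the range of the Bacillus controls. Of 27 chromatin genes only 4 fell (14.8%, below the background), 2 of them kept, and none rose. The falls were 7 without AtGATA2ox replicate 1 and 2 without Col replicate 2 or 3. The bZIP factors BZIP53 and BZIP61 differed by 1.23 ± 0.15 and -2.08 ± 0.22, the first not called under scaling to the hybridisation controls (0.18). TNY (listed as tny), an AP2-type growth regulator, and the corepressor SEU fell 4.55-fold and 3.26-fold, both kept. Of 30 growth and organ regulators 4 rose and 5 fell (13.3% and 16.7%, the falls near the background), with 2 falls kept. The rises were 2 without AtGATA2ox replicate 3 or Col replicate 1 or 3. Of 16 mitochondrion-encoded genes 7 rose and 1 fell, with 1 rise and the fall kept. cox2, a subunit of cytochrome c oxidase, read 1368.5, 2661.5 and 2472 in AtGATA2ox against 401.3, 400.4 and 511.4 in Col (log2 fold change 2.26 ± 0.23, adjusted p = 1.3e-05), and ccb382, of cytochrome c maturation, fell 3.97-fold. The 5 nuclear chromosomes were alike, with 7.65% to 9.23% of their named loci higher and 15.1% to 17.8% lower.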
